A study of Rhodotorula toruloides with 2 samples.

Results

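Yeasts and other fungi take up iron in 2 main ways. In the reductive route a ferric-chelate reductase in the plasma membrane reduces ferric iron outside the cell, and a permease that works with a copper-containing ferroxidase carries the ferrous iron in. In the other route the cell imports iron bound to siderophores, small ferric iron chelators, through proton-coupled symporters of the SIT (siderophore-iron transporter) family.

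The 6 genes described here were taken from the authors' deposited table by identifier, which followed its KEGG descriptions, out of 1402 listed genes. Of these, 3 are described as ferric-chelate reductases (RHTO_06556, RHTO_00010 and RHTO_00765), 2 as siderophore-iron:H+ symporters of the SIT family (RHTO_07321 and RHTO_01307) and 1 as a high-affinity iron transporter (RHTO_00148). The cells were the wild-type red yeast Rhodotorula toruloides, also called Rhodosporidium toruloides, strain AS 2.1389, an oil-accumulating basidiomycete. It was grown by chemostat cultivation, in which fresh medium is fed continuously and the volume held steady, at a limiting or a full supply of inorganic phosphate (Pi). There was 1 Pi-limited-labelled library and 1 Pi-replete-labelled library, with 5892590 and 5641377 counts, so that the comparison asks how transcripts differ with Pi supply without any measure of the spread between cultures.

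The labels call for care before any direction is read. In fungi phosphate transporter genes are known to be induced by phosphate shortage. Here all 4 listed genes matched as phosphate transporters were lower in the Pi-limited-labelled library, at a median log2 ratio of -5.90. For example, a sodium-dependent phosphate transporter (RHTO_01284) had 22 counts in the Pi-limited-labelled library and 5797 counts in the Pi-replete-labelled library. The description of the Pi-limited-labelled library also begins with the word control. No library was reassigned, and each direction below is that of the label a library carries.

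One ferric-chelate reductase was much higher in the Pi-limited-labelled library, and the other 5 members were all lower there. All members are in the table by construction, because it lists only genes that passed the authors' thresholds, which 17.6% of the tested genes did. The 1 member that was higher in the Pi-limited-labelled library stands against 58.3% of the listed genes (10.3% of those tested), and the 5 that were lower stand against 41.7% of the listed genes (7.34% of those tested). The median log2 ratio, Pi-limited-labelled over Pi-replete-labelled, was -1.46 for the 6 members and 1.10 for all listed genes. With so few members, these counts describe the members and support no statement about iron genes in general.

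RHTO_06556, a ferric-chelate reductase, had 16711 counts in the Pi-limited-labelled library and 1328 counts in the Pi-replete-labelled library. Its level per length was 1479 RPKM (reads scaled to gene length and library total) in the Pi-limited-labelled library and 123 RPKM in the Pi-replete-labelled library. This is a 12.05-fold higher level in the Pi-limited-labelled library, with an exact 95% interval of 11.4 to 12.7. All intervals cover counting error only and say nothing about a second culture, and in bulk RNA a higher level per cell cannot be told apart from more cells with the transcript. In the Pi-limited-labelled library this single gene took 0.284% of all counts, against 0.0235% in the Pi-replete-labelled library. Among the 1402 listed genes it ranked 12 by RPKM in the Pi-limited-labelled library and 200 in the Pi-replete-labelled library. By its log2 ratio of 3.59 it ranked 42 among the 817 listed genes that were higher in the Pi-limited-labelled library.

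The other reductases had the opposite direction and far lower levels. RHTO_00765 had 127 counts in the Pi-limited-labelled library and 270 counts in the Pi-replete-labelled library, or 11.5 and 25.6 RPKM. It was 2.22-fold lower in the Pi-limited-labelled library (95% interval 1.79 to 2.76), the smallest difference among the members. RHTO_00010, a weakly covered gene that shares its pair of KEGG descriptions with RHTO_06556, had 8 counts in the Pi-limited-labelled library and 38 counts in the Pi-replete-labelled library, or 0.693 and 3.44 RPKM. It was 4.96-fold lower in the Pi-limited-labelled library, but with so few counts the interval was wide (2.28 to 12.3).

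**Figure D1:**
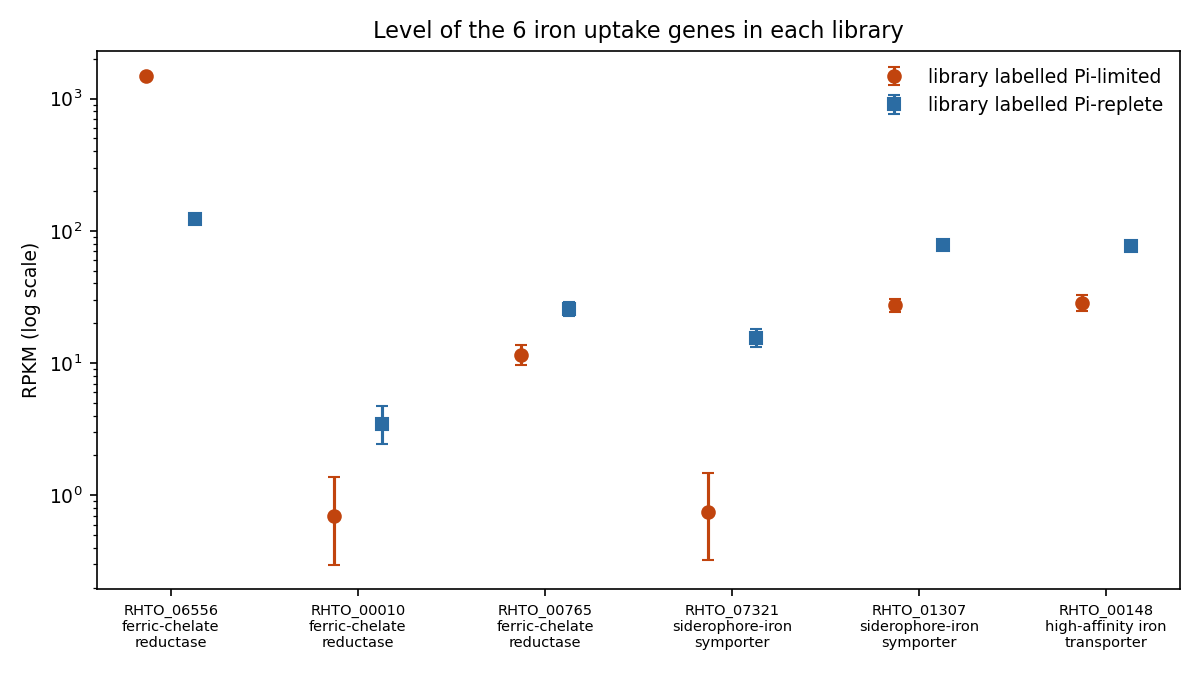
RPKM (log scale) of each member in the Pi-limited-labelled library (circles) and the Pi-replete-labelled library (squares), 1 library each, with exact 95% Poisson intervals as bars. RHTO_06556 is the member above its Pi-replete level in the Pi-limited-labelled library (1479 against 123 RPKM), while the other 5 are below theirs.

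The reductases could also be compared with one another without any library total, since the totals cancel when the fold of one gene is divided by the fold of another. The fold of RHTO_06556 was 26.7 times that of RHTO_00765 (exact 95% interval of the odds ratio 21.4 to 33.5). It was 59.7 times that of RHTO_00010 (27.4 to 149). The folds of RHTO_00765 and RHTO_00010, which had the same direction, stood in a ratio of 2.23, with an interval of 0.988 to 5.70 that includes 1, so a difference between them was not detectable at this depth. The gap between RHTO_06556 and the other reductases is thus independent of how the libraries were scaled.

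The make-up of the reductase transcripts shifted accordingly. The summed level of the 3 genes was 1492 RPKM in the Pi-limited-labelled library and 152 RPKM in the Pi-replete-labelled library. RHTO_06556 supplied 99.2% of that sum in the Pi-limited-labelled library and 80.9% in the Pi-replete-labelled library. RHTO_00765 supplied 0.772% and 16.8%, and RHTO_00010 0.0465% and 2.27%. Among the 3 listed reductases RHTO_06556 thus had the highest level in both libraries, and any reductase under the authors' thresholds is not analysed here.

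**Figure D2:**
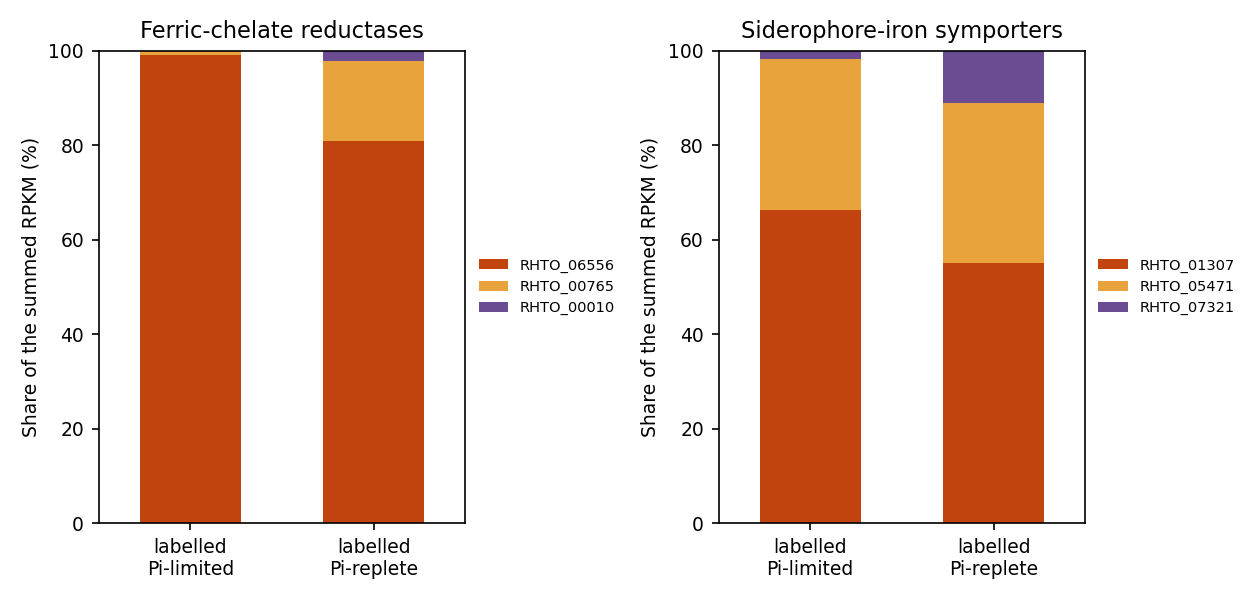
Share of the summed RPKM (%) held by each listed ferric-chelate reductase and each listed gene described as a SIT-family symporter, in the Pi-limited-labelled library (left bar) and the Pi-replete-labelled library (right bar). RHTO_06556 holds 99.2% and 80.9% of the reductase sum, and RHTO_01307 holds 66.4% and 55.1% of the symporter sum.

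Both SIT symporters were lower in the Pi-limited-labelled library. RHTO_07321 had 8 counts in the Pi-limited-labelled library and 159 counts in the Pi-replete-labelled library, or 0.744 and 15.5 RPKM. It was 20.8-fold lower in the Pi-limited-labelled library (95% interval 10.3 to 48.9), which ranked 63 among the 585 listed genes that were lower there. This gene was near the bottom of the table in the Pi-limited-labelled library, at rank 1343 of 1402 by RPKM, and in the middle of it, at rank 739, in the Pi-replete-labelled library.

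RHTO_01307, the more abundant symporter, had 293 counts in the Pi-limited-labelled library and 794 counts in the Pi-replete-labelled library, or 27.4 and 77.5 RPKM. It was 2.83-fold lower in the Pi-limited-labelled library (2.47 to 3.25). The fold of RHTO_07321 lay further from 1 than that of RHTO_01307, by a factor of 7.33 (3.57 to 17.5), so the 2 symporters had the same direction and unequal sizes. At 4-fold or more, RHTO_07321 and RHTO_00010 were the 2 members lower in the Pi-limited-labelled library, a size that 19.8% of the listed genes reached in that direction. RHTO_06556 was the 1 member at least 4-fold higher there, as were 14.1% of the listed genes.

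RHTO_00148, described as the high-affinity iron transporter, which is the permease of the reductive route, had 205 counts in the Pi-limited-labelled library and 525 counts in the Pi-replete-labelled library, or 28.6 and 76.4 RPKM. It was 2.68-fold lower in the Pi-limited-labelled library (2.27 to 3.16). The permease and the abundant symporter RHTO_01307 were alike in both level and difference. Their folds stood in a ratio of 1.06 (0.853 to 1.31), and their RPKM in a ratio of 1.04 in the Pi-limited-labelled library (permease over symporter, 0.868 to 1.25). The permease and the reductase RHTO_06556, whose described functions follow one another in the reductive route, had opposite directions between these libraries.

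The order of levels was much the same in both libraries. In the Pi-limited-labelled library it ran from RHTO_06556 through RHTO_00148, RHTO_01307, RHTO_00765 and RHTO_07321 to RHTO_00010. RHTO_06556 there exceeded the next gene 51.8-fold (45.1 to 59.7), whereas in the Pi-replete-labelled library it exceeded the next gene, RHTO_01307, only 1.58-fold (1.45 to 1.73). RHTO_00148 and RHTO_01307 could not be separated by counting error in either library. RHTO_07321 and RHTO_00010 could not be separated in the Pi-limited-labelled library (1.07-fold, 0.351 to 3.28), but RHTO_07321 was 4.49-fold above RHTO_00010 in the Pi-replete-labelled library (3.14 to 6.58). Summed over the 5 members other than RHTO_06556, counts were 641 in the Pi-limited-labelled library and 1786 in the Pi-replete-labelled library, 2.91-fold lower in the Pi-limited-labelled library (2.66 to 3.19).

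**Figure D3:**
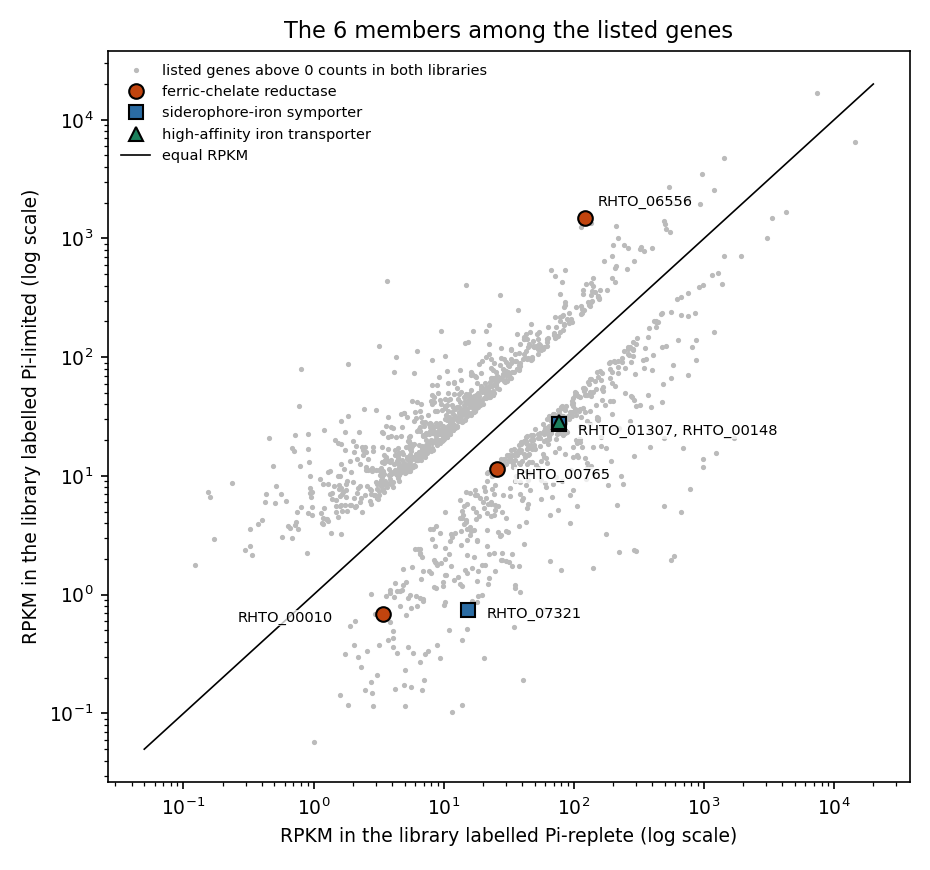
RPKM in the Pi-limited-labelled library (vertical, log scale) against RPKM in the Pi-replete-labelled library (horizontal, log scale) for the listed genes above 0 counts in both, with the 6 members as large symbols and the line of equal RPKM. The empty band along the line is left by the authors' 2-fold threshold; RHTO_06556 lies above the line and the other 5 members below it.

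Scaling moved the sizes, and it could turn no member's direction. Equal totals over the listed genes add 0.31 to every log2 ratio, and centring on the median of the listed genes adds -1.10. With equal totals RHTO_00765 came to a log2 ratio of -0.84, short of 2-fold. In that setting 4 of the 5 lower members stayed at 2-fold or more, as did 436 of the 585 lower listed genes. After median centring RHTO_06556 had a log2 ratio of 2.49. In the authors' deposited table the largest false discovery rate of a member was 7.96e-06, for RHTO_00010. The authors' test is not identified in the sources used here. With 1 library per condition it carries no information on replicate cultures.

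A further listed gene, RHTO_05471, carries the same SIT-family KEGG description, although its best BLAST hit is a drug:H+ antiporter and it was not in the member set. It had 145 counts in the Pi-limited-labelled library and 504 counts in the Pi-replete-labelled library, 3.63-fold lower in the Pi-limited-labelled library (3.01 to 4.40), and so shared the direction of both symporter members. Of the summed RPKM of all 3 genes with that description, RHTO_05471 held 31.8% in the Pi-limited-labelled library and 33.9% in the Pi-replete-labelled library. The gene directly beside it in the reference gene order, RHTO_05472, is described as L-ornithine N5-oxygenase, the enzyme of the first committed step of hydroxamate siderophore synthesis in fungi. RHTO_05472 had 255 counts in the Pi-limited-labelled library and 568 counts in the Pi-replete-labelled library, 2.33-fold lower in the Pi-limited-labelled library (2.00 to 2.71). Neighbouring genes can share reads when strand is not used in counting, and the use of strand is not stated in the labels or the table.

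The direction was not shared by every gene with a siderophore or transport description. RHTO_02906, with a best BLAST hit to a putative siderophore iron transporter and no KEGG description, had 64 counts in the Pi-limited-labelled library and 27 in the Pi-replete-labelled library, 2.27-fold higher in the Pi-limited-labelled library (1.43 to 3.70). RHTO_01880, described as nonribosomal peptide synthetase 4, belongs to a class of enzymes of which some assemble siderophores. It was 2.39-fold higher in the Pi-limited-labelled library (2.06 to 2.79), with 600 counts there and 240 in the Pi-replete-labelled library.

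Of the copper proteins tied to iron uptake, the copper transporter RHTO_02838 had the direction of RHTO_06556, as did 58.3% of all listed genes. RHTO_02838 had 4410 counts in the Pi-limited-labelled library and 705 counts in the Pi-replete-labelled library. It was 5.99-fold higher in the Pi-limited-labelled library (5.53 to 6.49). The sizes were unequal, as this fold was 0.497 times that of RHTO_06556 (0.451 to 0.549). In Saccharomyces cerevisiae the reductase Fre1 reduces copper as well as iron, and Ctr1 takes up the reduced copper. The substrate of RHTO_06556 was not tested. A multicopper oxidase (RHTO_07161), the protein family that in S. cerevisiae includes the ferroxidase Fet3, had 14 counts in the Pi-limited-labelled library and 45 counts in the Pi-replete-labelled library. It was 3.36-fold lower in the Pi-limited-labelled library (1.81 to 6.62), on the side of the permease RHTO_00148, and its KEGG entry has a laccase-type enzyme number, so that a ferroxidase role is not known.

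Genes that the search patterns matched for heme synthesis, heme enzymes and iron-sulfur proteins were higher in the Pi-limited-labelled library in 9 of 11 cases (7 of 11 after median centring, which turned RHTO_04450 and RHTO_06231). Among all listed genes 58.3% were higher. The 11 include RHTO_07326, RHTO_04449 and RHTO_06231, whose matches were uncertain. The 4 matched uptake partners that are not members gave 2 higher and 2 lower. Over all 7 lists of iron-related descriptions, 19 listed genes other than members were found, of which 13 were higher and 6 lower in the Pi-limited-labelled library, with a median log2 ratio of 1.18 against 1.10 for all listed genes. Their share of higher genes is to be read against the 58.3% of all listed genes given above. Without 5 genes whose match was uncertain, 10 were higher and 4 lower. Median centring, which shifts every gene downward, gave 10 of the 19 a ratio above 1 and 9 below. The listed genes as a whole split evenly there by definition. It left 1 of the 19 at least 2-fold higher and 6 at least 2-fold lower, against 182 and 585 of all 1402 listed genes. Because the shift is downward, every lower gene stayed at least 2-fold lower.

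All 4 genes that the search patterns matched as heme enzymes were higher in the Pi-limited-labelled library, as were 58.3% of all listed genes. This depends on the sorting into lists. RHTO_06768, with a best hit to a siroheme enzyme, was placed with the iron-sulfur genes only, and it was 9.40-fold lower in the Pi-limited-labelled library. The patterns missed the listed genes RHTO_04252 and RHTO_04128, which have a KEGG entry in common with both matched cytochrome P450 genes. They were chosen after their values were seen, and they had opposite directions. RHTO_04252 had 13 counts in the Pi-limited-labelled library and 61 counts in the Pi-replete-labelled library, 4.90-fold lower in the Pi-limited-labelled library (2.66 to 9.72). RHTO_04128, also described as a cytochrome-b5 reductase, had 586 and 208 counts in the same order. It was 2.70-fold higher in the Pi-limited-labelled library (2.30 to 3.17). A cytochrome P450 (RHTO_06383) was 3.92-fold higher (2.99 to 5.19), and catalase (RHTO_01370), which breaks down hydrogen peroxide, was 2.30-fold higher (1.88 to 2.82). The others were the large subunit of nitrite reductase (RHTO_06480, 2.77-fold) and a gene with P450 descriptions that include sterol 14-demethylase (RHTO_00164, 2.39-fold). In heme synthesis, 3 of 4 matched genes were higher. Coproporphyrinogen III oxidase (RHTO_03472), a late enzyme of the pathway, had 1398 counts in the Pi-limited-labelled library and 469 counts in the Pi-replete-labelled library, 2.85-fold higher in the Pi-limited-labelled library (2.57 to 3.18). Porphobilinogen synthase (RHTO_04450), an early one, was 2.04-fold higher (1.79 to 2.32).

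The other heme-related matches were uncertain in their descriptions. RHTO_07326 is described as a uroporphyrin-III C-methyltransferase, an enzyme of siroheme synthesis, and was 3.94-fold higher in the Pi-limited-labelled library (2.30 to 7.15). RHTO_04449 has its best BLAST hit to the same protein as its neighbour RHTO_04450, but by KEGG it is a mannosyltransferase, and it was 6.33-fold lower in the Pi-limited-labelled library (4.91 to 8.25).

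Of the iron-sulfur genes, an iron-sulfur cluster assembly protein (RHTO_06062) had 1150 counts in the Pi-limited-labelled library and 378 counts in the Pi-replete-labelled library, 2.91-fold higher in the Pi-limited-labelled library (2.59 to 3.28). A gene with a best hit to assimilatory sulfite reductase (RHTO_06768), an enzyme that carries siroheme and an iron-sulfur cluster, had 2 counts and 18 counts in the same order. It was 9.40-fold lower in the Pi-limited-labelled library, with an interval of 2.25 to 83.5. RHTO_06231 is a cytochrome b5 reductase that matched through a domain name, and it was 2.01-fold higher in the Pi-limited-labelled library.

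No listed gene matched the search patterns for iron storage or movement inside the cell, and genes under the authors' thresholds are not analysed here. The patterns missed the listed gene RHTO_00040, which KEGG describes as an iron-regulated transporter. It is given under the other observations and is not in the list counts above. In the regulator list, RHTO_04818, a bZIP factor by KEGG with an Opi1 domain by BLAST, was 2.89-fold lower in the Pi-limited-labelled library (2.46 to 3.41). RHTO_06256 (2.08-fold higher) is a calmodulin-dependent kinase that matched only through a species name.

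**Figure D4:**
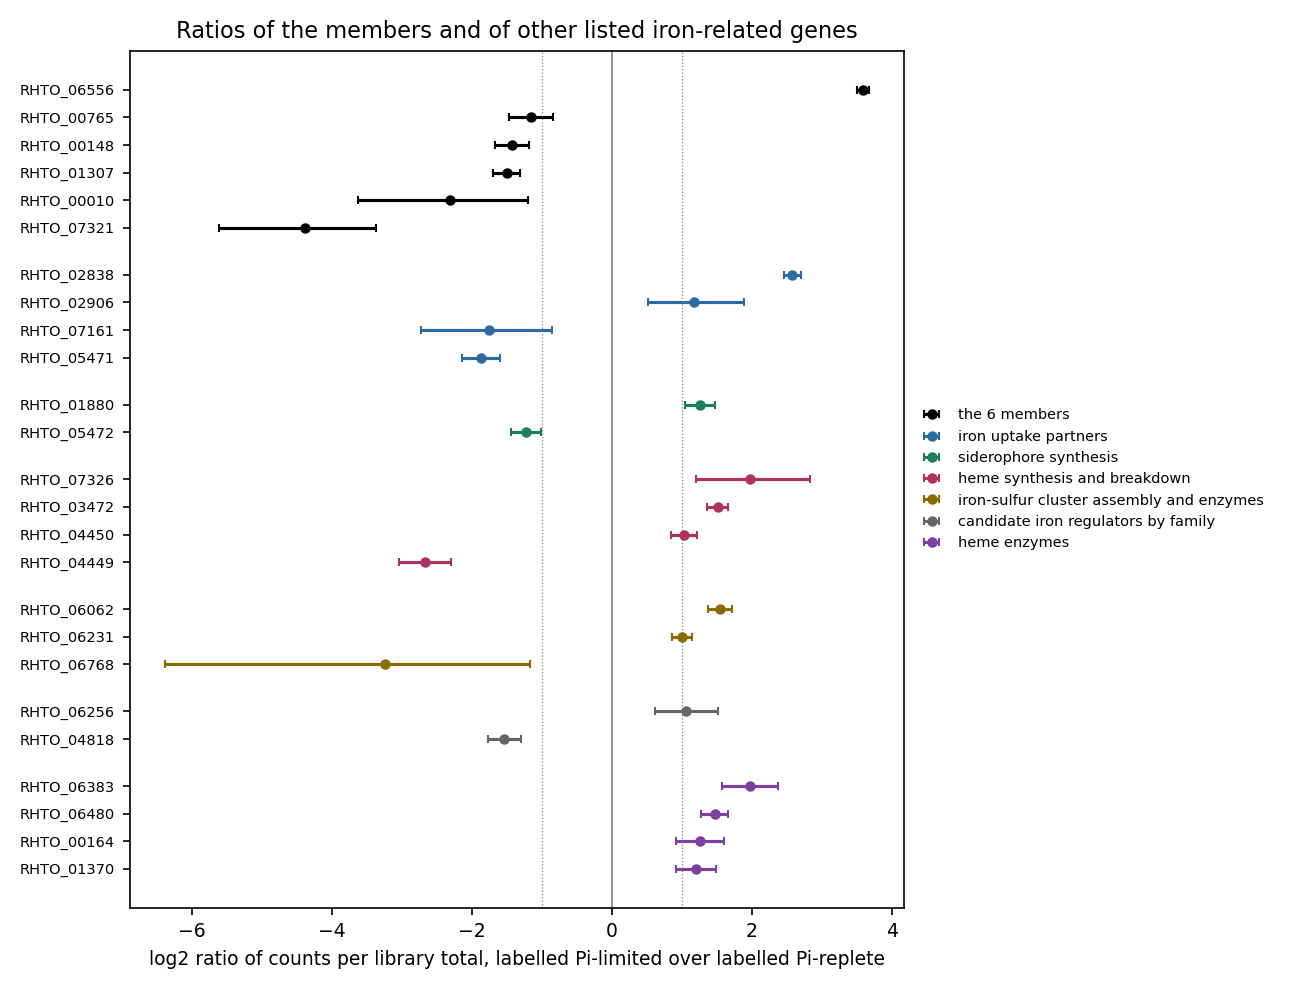
Log2 ratio of counts per library total, Pi-limited-labelled over Pi-replete-labelled, for the 6 members (black) and the 19 other listed genes of the iron-related lists (colours), with exact 95% intervals for counting error as bars and dotted lines at 2-fold. RHTO_06556 at 3.59 and the copper transporter RHTO_02838 at 2.58 are furthest to the right, and RHTO_07321 at -4.38 is furthest to the left.

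The members did not lie beside one another in the gene order of the reference assembly. Within 5 gene positions on either side of the members there were 60 neighbouring genes. Of these 11 were listed, 6 higher and 5 lower in the Pi-limited-labelled library. Of all tested genes 17.6% were listed, and 58.3% of the listed genes were higher there, so these counts are close to those shares. Beside RHTO_06556, the oxidoreductase-type gene RHTO_06555 had 179 counts in the Pi-limited-labelled library and 34 in the Pi-replete-labelled library. It was 5.04-fold higher in the Pi-limited-labelled library (3.48 to 7.50), the direction of the reductase. RHTO_06556 itself had 16711 and 1328 counts in the same order, and whether these adjacent genes shared reads was not tested. Beside the permease RHTO_00148, a multidrug transporter of the major facilitator superfamily (RHTO_00147) had 35 counts in the Pi-limited-labelled library and 308 in the Pi-replete-labelled library, and was 9.19-fold lower in the Pi-limited-labelled library (6.47 to 13.4). Both of these neighbours had the direction of the member next to them. Other listed neighbours did not, among them RHTO_00009 directly beside RHTO_00010, so no shared direction of neighbours is read from them.

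Other members had mixed surroundings. Near the symporter RHTO_07321, RHTO_07323 was 8.89-fold lower (7.23 to 11.0) and RHTO_07318 11.5-fold lower (5.32 to 29.5) in the Pi-limited-labelled library, neither with a described function, while RHTO_07326, named above, was higher. Next to the reductase RHTO_00010, an aspartic protease (RHTO_00009) was 5.17-fold higher (2.61 to 11.4), against the direction of the reductase, whereas RHTO_00008 was 2.84-fold lower. RHTO_00015, with a best hit to a methylcrotonoyl-CoA carboxylase subunit, was 2.23-fold higher. The remaining listed neighbours differed by little more than 2-fold: RHTO_00767 near RHTO_00765 was 2.09-fold lower, RHTO_01303 near RHTO_01307 was 2.01-fold higher and RHTO_00143 near RHTO_00148 was 2.01-fold higher in the Pi-limited-labelled library, both turning direction with median centring.

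With 2 libraries, likeness of pattern can only mean a like log2 ratio. By that measure, among 676 listed genes that have a functional description and 100 counts or more in the higher library, the nearest to RHTO_06556 was a nucleobase:cation symporter (RHTO_00866, log2 ratio 3.57). The nearest to RHTO_07321 was an O-acetylhomoserine (thiol)-lyase of sulfur amino acid synthesis (RHTO_02616, -4.45), and to RHTO_00148 a gene described as MET30 (RHTO_04390, -1.42), an F-box protein that regulates sulfur amino acid genes in S. cerevisiae. The nearest to RHTO_01307 was a putative hydrolase (RHTO_07849, -1.50) and to RHTO_00765 a dynamin GTPase (RHTO_01584, -1.16). For RHTO_00010 it was a putative transporter (RHTO_07253, -2.31). These picks take no account of counting error, which was wide for RHTO_07321 (10.3 to 48.9-fold lower) and RHTO_00010 (2.28 to 12.3-fold lower). Any link in function was not tested.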

How the data were processed

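Total RNA from 40 ml of chemostat culture per library was sequenced, per the labels' protocols. The submitters' processing notes name Cufflinks and DESeq without role or version. The aligner, the build and strand use are not stated in the sources used here. Per the file headers, the authors deposited for each listed gene the raw count, the RPKM, the log2 ratio of RPKM (Pi-replete-labelled over Pi-limited-labelled), and a p-value with its false discovery rate. The deposited values show thresholds of 2-fold and a false discovery rate of 0.001.

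Library totals were recovered from count, length and RPKM. The number of genes tested by the authors, 7970, was recovered from their p-values and false discovery rates, which gave whole ranks within 0.01. Folds are counts over library totals, Pi-limited-labelled over Pi-replete-labelled or its inverse, with exact 95% Clopper-Pearson intervals. RPKM intervals are exact Poisson, and ratios of folds are conditional odds ratios (Python 3.11.15, scipy 1.17.1). With 1 library per condition no p-value was computed, and the labels mention no replicate cultures. Deposited lengths were multiples of 3 for 99.4% of genes, so they are coding lengths. Near-identical copies may share reads.

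For gene order only, the identifiers were looked up in the gene table of assembly RHOziaDV1.0 (strain NP11), where all 1402 were found. The members, the lists of search patterns and the settings were chosen with earlier results of these data known. Named genes were all members, every gene of the lists (each had 5 or fewer besides members), listed genes within 5 positions of a member, and the nearest gene by log2 ratio to each member. RHTO_00040, RHTO_06789, RHTO_04252 and other genes with a Gene Ontology term for iron were chosen after their values were seen. Protein and promoter sequences were not analysed here.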

Additional observations from a re-analysis of the deposited data

How the results depend on the processing

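Each member's log2 ratio kept its sign under equal totals, median centring, a pseudocount of 1 on RPKM and a pseudocount of 5 on counts. None of these settings could have turned ratios of this size, so the kept signs add no support. With equal totals over the listed genes and with median centring, the log2 ratio was 3.90 and 2.49 for RHTO_06556, -0.84 and -2.25 for RHTO_00765, -1.19 and -2.60 for RHTO_01307, and -1.11 and -2.52 for RHTO_00148. These shifts follow from the scaling itself, which is the same for every gene. For RHTO_07321, with 8 counts in the Pi-limited-labelled library, a pseudocount of 1 on RPKM gave -3.24. Among the members, 2 were at least 4-fold lower in the Pi-limited-labelled library. Adding RHTO_05471 and RHTO_02906, an alternative chosen after seeing the data, gave 2 genes higher and 6 lower in the Pi-limited-labelled library. Median centring left 1 gene of the iron-related lists at least 2-fold higher, and 182 of all 1402 listed genes. Depth limits RHTO_00010 and RHTO_07321 most. No paired analysis was possible because each condition has 1 library.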

Other observations

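Other listed genes tied to iron or copper, chosen after their values were seen, were as follows. Cytochrome c (RHTO_05208), the heme protein that carries electrons to cytochrome oxidase, had 32349 counts in the Pi-limited-labelled library and 13491 counts in the Pi-replete-labelled library, 2.30-fold higher in the Pi-limited-labelled library (95% interval 2.25 to 2.34, counting error only). It is 1 of 5 listed genes with the Gene Ontology term for iron ion binding, of which 3 were higher and 2 lower there. The copper chaperone RHTO_06789 was 2.30-fold higher in the Pi-limited-labelled library (1.79 to 2.98), with 214 counts there and 89 in the Pi-replete-labelled library, the direction of the copper transporter RHTO_02838. RHTO_00040 is described by KEGG as an iron-regulated transporter of solute carrier family 40 and by BLAST as a polyketide synthase, and it had 105 counts in the Pi-limited-labelled library and 24 in the Pi-replete-labelled library (4.19-fold higher, 2.67 to 6.83).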
